A study of Mus musculus with 112 samples.

Results

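Parm1, the gene of prostate androgen-regulated mucin-like protein 1, was followed in epididymal white adipose tissue (WAT) of 7 mouse strains on caloric restriction (CR) or a control diet. It is 1 of 19938 genes measured and was read by the 1 probe set that carries only its symbol. The gene was chosen because the study picked it as a marker of CR in WAT, on the size and spread across strains of its change on these same arrays. Its CR change is therefore described here without a test. The tests below concern measures that this choice did not use, apart from the strain tests within 1 diet.

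Each of 112 male mice gave 1 Affymetrix Mouse Gene 1.0 ST array, and a strain had 8 CR and 8 control mice. The CR and control groups were compared in 129S1/SvImJ, BALB/cJ, C57BL/6J, CBA/J, C3H/HeJ, DBA/2J and B6C3F1/J mice, the last a hybrid of C57BL/6 and C3H and the others inbred. All mice were housed singly, ate a purified diet of the AIN93M type, and were fasted overnight before tissue was taken at 22 weeks of age. The restriction was not the same in every strain. B6C3F1/J, DBA/2J, CBA/J and C3H/HeJ shared 1 ration on each diet, whereas CR mice of 129S1/SvImJ and C57BL/6J were cut further part of the way through, and BALB/cJ mice of both diets received more food, so that its CR mice ate the ration of control mice in the other strains. Where rations differ, strain and ration cannot be told apart. This does not apply among the 4 strains on the shared ration, and on the control diet only BALB/cJ had another ration. In BALB/cJ, control mouse 3 and CR mouse 6 had levels of Parm1 and its followers typical of the other diet. The CR changes of Parm1 and of its closest followers are also given without this strain or that control mouse. So are the strain F-test and the correlations of the followers. The strain pairs, the CR change of genes that ran against Parm1 and the F-tests of unequal CR change are not given without BALB/cJ. Nor is the correlation of Btc.

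PARM1 is a single-pass membrane protein with a heavily glycosylated outer part of mucin type. It was first described in rat prostate after castration, and in rat cardiac myocytes it has been linked to stress of the endoplasmic reticulum. White adipose tissue stores triacylglycerol, part of which adipocytes make themselves from glucose and fructose through cytosolic acetyl-CoA and fatty acid synthesis.

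The stretches upstream of Parm1 and of Slc2a5 and Acly, the genes whose variation followed it most closely, are shown because the results turn on these 3 genes moving together. They are the 250 bases before the RefSeq start of each gene (GRCm38.p6), written 5′ to 3′ along the gene. The Parm1 stretch lies at chr5:91517450-91517699 on the plus strand, that of Slc2a5 at chr4:150119094-150119343 on the plus strand and that of Acly at chr11:100528001-100528250 on the minus strand. Capitals mark matches, on either strand, to CANNTG, the E-box, and to GGGCGG, the core of the GC box.
Parm1: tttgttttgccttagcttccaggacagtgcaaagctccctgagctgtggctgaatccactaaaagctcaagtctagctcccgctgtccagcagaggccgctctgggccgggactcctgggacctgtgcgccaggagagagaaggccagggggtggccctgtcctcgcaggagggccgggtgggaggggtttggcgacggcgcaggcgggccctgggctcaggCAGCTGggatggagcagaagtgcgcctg
Slc2a5: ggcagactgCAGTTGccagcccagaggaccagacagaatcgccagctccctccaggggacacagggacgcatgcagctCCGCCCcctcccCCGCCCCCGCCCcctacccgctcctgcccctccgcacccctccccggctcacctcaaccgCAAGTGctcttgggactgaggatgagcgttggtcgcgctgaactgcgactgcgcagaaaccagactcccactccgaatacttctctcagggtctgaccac
Acly: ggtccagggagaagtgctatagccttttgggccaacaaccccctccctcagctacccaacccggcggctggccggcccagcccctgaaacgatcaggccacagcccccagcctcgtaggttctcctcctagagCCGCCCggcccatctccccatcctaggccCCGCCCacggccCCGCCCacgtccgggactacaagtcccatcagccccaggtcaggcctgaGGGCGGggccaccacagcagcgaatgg
The Parm1 stretch held 1 E-box and no GC box, that of Slc2a5 held 2 E-boxes and 3 GC boxes, and that of Acly held 0 E-boxes and 4 GC boxes. CANNTG occurred in 66.2% and GGGCGG in 32.7% of 32851 RefSeq promoters of this length. The E-box form CACGTG (6.02% of promoters), the sterol response element form TCACNCCAC (1.05%) and the core of hormone response elements AGAACA (16.1%) had 0 matches in Parm1. The motifs were picked after expression values had been seen, they can overlap one another, and a match is a string of letters in this window and no more.

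Parm1 had a higher mean log2 signal on CR in 7 of 7 strains. Over the strains it was higher by 1.55 on the log2 scale (SE 0.21 over 7 strains), a 2.93-fold ratio of geometric mean signals, and ranked 11 among the increases of 19938 genes. Because the gene was chosen on this contrast, these values and those by strain are a description.

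In B6C3F1/J, the hybrid, Parm1 ran from 10.53 through a median of 11.21 to 11.53 in CR mice, against 8.32, 8.61 and 8.99 in control mice. The mean was 11.16 ± 0.34 in CR mice and 8.65 ± 0.24 in control mice (SD, n = 8 each), a difference of 2.51 (SE 0.15) or 5.70-fold. Every hybrid CR mouse lay above every control mouse, and the gap between the nearest mice was 1.54. A full separation in this direction was seen for 6.95% of all genes in this strain.

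In 129S1/SvImJ the lowest, median and highest signals were 9.41, 10.73 and 11.15 on CR, against 8.10, 8.48 and 8.66 on the control diet. The means were 10.51 ± 0.62 in CR mice and 8.44 ± 0.18 in control mice (SD, n = 8 each), 2.07 apart (SE 0.23, 4.19-fold). Here too the groups did not touch, as for 3.42% of genes in the strain, and the CR mice were spread more widely than the control mice. C57BL/6J, the other strain with the deeper restriction, had signals of 9.09, 9.76 and 10.44 on CR, against 8.10, 8.21 and 8.65 on the control diet. Its means were 9.81 ± 0.46 in CR mice and 8.30 ± 0.21 in control mice (SD, n = 8 each), 1.52 apart (SE 0.18, 2.86-fold). All 8 CR mice were above all 8 control mice, a separation that 2.63% of genes showed, although the CR mean of this strain was the lowest of the 7.

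C3H/HeJ mice had Parm1 signals of 9.95, 11.06 and 11.36 on CR, against 8.74, 9.19 and 10.35 on the control diet. The means of 10.97 ± 0.43 in CR mice and 9.39 ± 0.61 in control mice (SD, n = 8 each) differed by 1.58 (SE 0.26, 2.98-fold). The ranges overlapped through 1 low CR mouse, and the other 7 CR mice were above every control mouse (1.85% of genes separated fully). In CBA/J the signals were 10.48, 11.43 and 11.63 on CR, against 9.14, 10.37 and 10.85 on the control diet. The means were 11.32 ± 0.38 in CR mice and 10.26 ± 0.57 in control mice (SD, n = 8 each), 1.07 apart (SE 0.24, 2.09-fold). Again 7 of 8 CR mice were above every control mouse (1.39% of genes separated fully), and both means were the highest of their diet.

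In DBA/2J, Parm1 had signals of 10.06, 10.73 and 10.98 on CR, against 9.15, 9.72 and 10.60 on the control diet. The means of 10.69 ± 0.30 in CR mice and 9.74 ± 0.51 in control mice (SD, n = 8 each) differed by 0.95 (SE 0.21, 1.93-fold). In this strain 6 of 8 CR mice lay above every control mouse, and full separation was rare among all genes (0.0702%). This was the smallest change of the 7 with all arrays, but 7 of the 12 arrays that stand apart (on epididymis markers or on correlation with their group) are from DBA/2J, and without the 12 the difference was 1.33 in DBA/2J, 1.17 in BALB/cJ and 1.15 in CBA/J. In BALB/cJ the signals were 8.71, 10.76 and 11.81 on CR, against 8.78, 9.01 and 11.26 on the control diet. The means were 10.43 ± 1.07 in CR mice and 9.25 ± 0.82 in control mice (SD, n = 8 each), 1.17 apart (SE 0.48, 2.26-fold). The BALB/cJ groups overlapped over nearly their whole range, with 2 CR mice above every control mouse and 1 control mouse, mouse 3, above 6 of 8 CR mice (0.00502% of genes separated fully). The other 7 control mice ran from 8.78 to 9.09, below every CR mouse but CR mouse 6 (8.71). Without mouse 3 the BALB/cJ difference was 1.46, and without BALB/cJ the Parm1 change over the strains was 1.61.

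**Figure D1:**
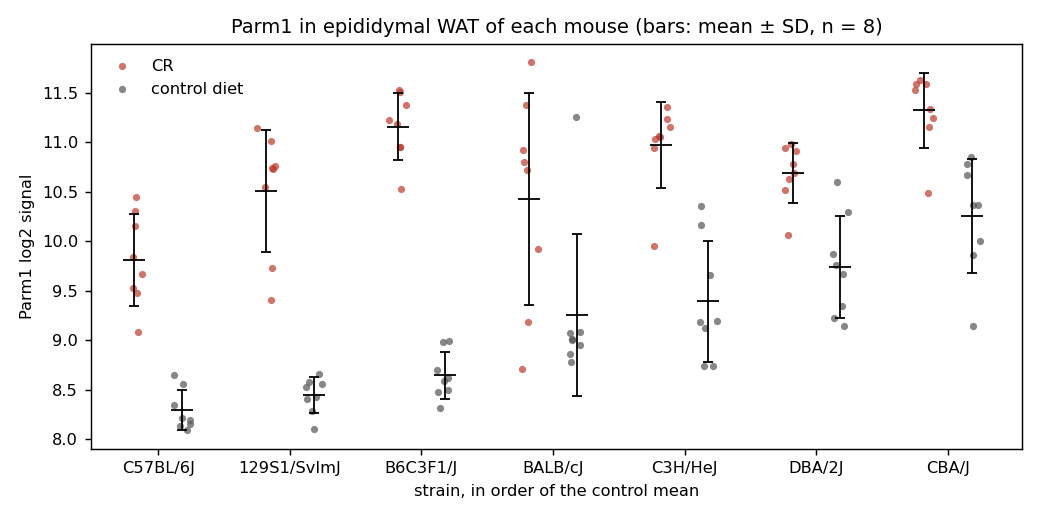
Log2 signal of Parm1 (vertical axis) in each mouse of 7 strains (horizontal axis, ordered by the control mean), with CR mice in red to the left and control mice in grey to the right. Bars give mean ± SD for 8 mice. CR and control mice are fully separate in C57BL/6J, 129S1/SvImJ and B6C3F1/J, and the single high control mouse of BALB/cJ stands at 11.26.

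The group means of Parm1 covered 1.51 log2 units among CR groups (9.81 to 11.32, SD of the 7 means 0.51) and 1.96 among control groups (8.30 to 10.26, SD 0.72). On CR the order was CBA/J, B6C3F1/J, C3H/HeJ, DBA/2J, 129S1/SvImJ, BALB/cJ and C57BL/6J. Each step down that order was smaller than the SDs of both neighbours, except the last, from BALB/cJ to C57BL/6J, which was 0.62 against SDs of 1.07 and 0.46. On the control diet the order was CBA/J, DBA/2J, C3H/HeJ, BALB/cJ, B6C3F1/J, 129S1/SvImJ and C57BL/6J, and the steps between DBA/2J and C3H/HeJ, between C3H/HeJ and BALB/cJ, and between 129S1/SvImJ and C57BL/6J were smaller than both SDs. CBA/J led and C57BL/6J came last on both diets, whereas B6C3F1/J stood in the 2nd place on CR and in the 5th on the control diet.

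Whether strains differ in Parm1 regardless of diet was tested on the mean of the CR and control groups, which is independent of the CR contrast in this balanced design. Strains differed (limma F = 17.8, adjusted p = 4.45e-13), as did 67.5% of all genes. Over both diets without BALB/cJ F was 33.2 (limma adjusted p = 2.01e-17). In control mice alone F was 17.7 (limma adjusted p = 5.83e-10), and in CR mice alone it was 6.83 (limma adjusted p = 0.000113). Each diet alone is a part of the CR contrast that chose the gene, so these last tests are not independent of that choice. The mean of both diets was 10.79 in CBA/J, 10.21 in DBA/2J, 10.18 in C3H/HeJ, 9.90 in B6C3F1/J, 9.84 in BALB/cJ, 9.48 in 129S1/SvImJ and 9.05 in C57BL/6J. Of 21 pairs of strains, 12 passed an adjusted p of 0.05. Among neighbours in the order only CBA/J and DBA/2J did, differing by 0.57 (SE 0.19, limma adjusted p = 0.0128, a pair on the same rations in which 29.9% of genes passed). DBA/2J was 0.03 above C3H/HeJ (adjusted p = 0.925 from limma, 35.1% of genes passing), and C3H/HeJ was 0.28 above B6C3F1/J (adjusted p = 0.424, 11.9% of genes). B6C3F1/J was 0.06 above BALB/cJ (adjusted p = 0.835 from limma, 35.8% of genes), and BALB/cJ was 0.37 above 129S1/SvImJ (adjusted p = 0.161, 24.4% of genes). The last step, of 0.42 for 129S1/SvImJ above C57BL/6J, did not pass either (adjusted p = 0.0873 from limma, 25.8% of genes). Each of these steps had an SE of 0.19, which comes from 1 estimate of the spread shared by all groups. The SDs of single groups ran from 0.18 in 129S1/SvImJ control mice to 1.07 in BALB/cJ CR mice. The limma tests between strains therefore do not use the spread of the strains compared.

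The hybrid was then set against the mean of its parental strains, C57BL/6J and C3H/HeJ. Averaged over diets, Parm1 was 9.90 in B6C3F1/J and 9.62 in the parental mean, a difference of 0.28 (SE 0.16) that did not pass (limma adjusted p = 0.305, with 10.8% of genes passing). By diet, described without a test, B6C3F1/J was above the parental mean on CR, at 11.16 against 10.39 (a difference of 0.76), and below it on the control diet, at 8.65 against 8.85 (a difference of -0.20).

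The genes whose variation followed Parm1 were found from deviations of each mouse from its own group mean, which leave out diet and strain. Over 112 mice the highest Pearson correlation was with Slc2a5, the fructose transporter (r = 0.941), followed by Acly, the enzyme that splits citrate into acetyl-CoA (r = 0.940), and Acss2, which forms acetyl-CoA from acetate (r = 0.938). Next came Angptl8, a secreted regulator of lipoprotein lipase (r = 0.925), Dlat, the acetyltransferase of the pyruvate dehydrogenase complex (r = 0.924), and Dhrs7, a short-chain dehydrogenase (r = 0.919). Lss, the lanosterol synthase of cholesterol synthesis, had r = 0.916, Tlcd3b, a gene of the TLC domain family, r = 0.913, Me1, the cytosolic malic enzyme that supplies NADPH, r = 0.912, and Ncan, the chondroitin sulphate proteoglycan neurocan, r = 0.911. The next gene had 0.908, so the list has no gap at its end. In all, 121 of 19937 other genes reached 0.8 and 1241 reached 0.5, against a median of -0.02 over all genes. The mice share 1 tissue and 1 array type, and their RNA may share depot composition, so these values are descriptive.

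At the other end, Peg3, an imprinted gene of a zinc finger protein, had r = -0.787 with Parm1, Sema5a, a semaphorin, -0.734, Mycbp2, a ubiquitin ligase, -0.729, Ivns1abp, a kelch-repeat protein, -0.725, and Adgre5, the adhesion receptor CD97, -0.719. The next was -0.706, and 239 genes lay at or below -0.5. The order at this end was less stable. Only 1 of these 5 genes was among the 5 lowest in CR mice alone and in control mice alone. The same held without the 12 arrays that stand apart. Without BALB/cJ 3 of the 5 were among the 5 lowest. The r of the 5 genes was then weaker, from -0.666 for Mycbp2 to -0.499 for Adgre5, with Peg3 at -0.626. In each of these settings 5 of the 5 were among the lowest 100.

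The positive correlations held on each diet. Acss2 had r = 0.972 with Parm1 in the 56 CR mice and 0.892 in the 56 control mice, Acly 0.943 in CR mice and 0.937 in control mice, and Slc2a5 0.965 in CR mice and 0.909 in control mice. By strain, over 16 mice each, the lowest r with Slc2a5 was 0.655 in B6C3F1/J, that with Acly 0.675 in C57BL/6J and that with Acss2 0.834 in DBA/2J, and the highest of all 3 genes were in BALB/cJ, at 0.987, 0.978 and 0.981. Parm1 varied most within the BALB/cJ groups, and without that strain the r of the 10 genes ran from 0.853 to 0.907. Within single control groups of small spread the relation was not always seen, as for Slc2a5 in B6C3F1/J control mice (r = -0.280, n = 8).

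**Figure D2:**
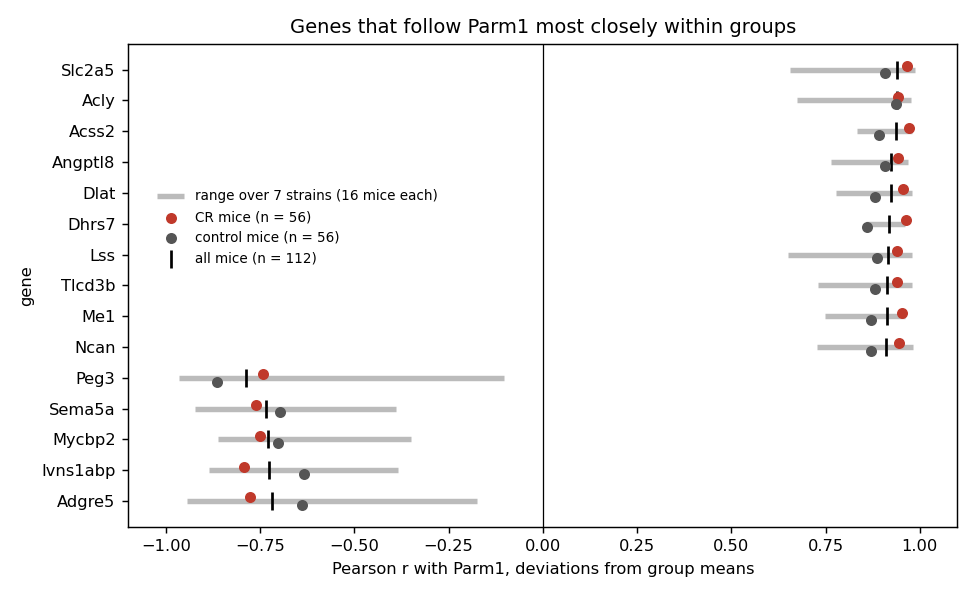
Pearson r with Parm1 (horizontal axis) of the 10 genes with the highest and the 5 with the lowest r (vertical axis), from deviations of mice from their group means. Red points are CR mice, grey points control mice, black ticks all 112 mice, and grey bars the range over 7 strains. All 10 upper genes are at 0.650 or more in each strain, whereas Peg3 runs from -0.966 in BALB/cJ to -0.103 in C57BL/6J.

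The correlation of Peg3 with Parm1 in C57BL/6J moved with the arrays included. CR mouse 2 of that strain had the lowest Parm1 of its group (9.09) together with the lowest Peg3 (7.90), and on its array the markers of the epididymis, the organ next to this fat depot, averaged 5.88 log2 units above the median array. Without the 12 arrays that stood apart on those markers or on correlation with their group, Peg3 had r = -0.866 with Parm1 in C57BL/6J (n = 14 after 2 arrays were left out) and -0.903 over the 100 other mice, and Acly had r = 0.961 over those mice.

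In BALB/cJ the extreme mice moved in Parm1 and in its followers alike. Control mouse 3 had a Parm1 signal of 11.26, against 8.78 to 9.09 in the other 7 control mice. In the same mouse Acly was 13.00, against 9.22 to 10.21 in the others, and Slc2a5 was 9.69, against 6.43 to 6.74. It lay above the other 7 control mice in 10 of the 10 genes that followed Parm1 and below them in 5 of the 5 at the negative end, Peg3 included (7.54, against 9.33 to 10.35). CR mouse 6 was the reverse, with the lowest Parm1 of its group (8.71), and it lay below the other 7 CR mice in 10 of the 10 genes and above them in 3 of the 5. Control mouse 3 thus fell within the range of the BALB/cJ CR mice in Parm1 (8.71 to 11.81), and CR mouse 6 fell below the lowest control mouse (8.78). Both were kept in the groups their labels give, and whether each label is right was not tested. Without control mouse 3, the r of the 10 genes ran from 0.894 to 0.929.

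**Figure D3:**
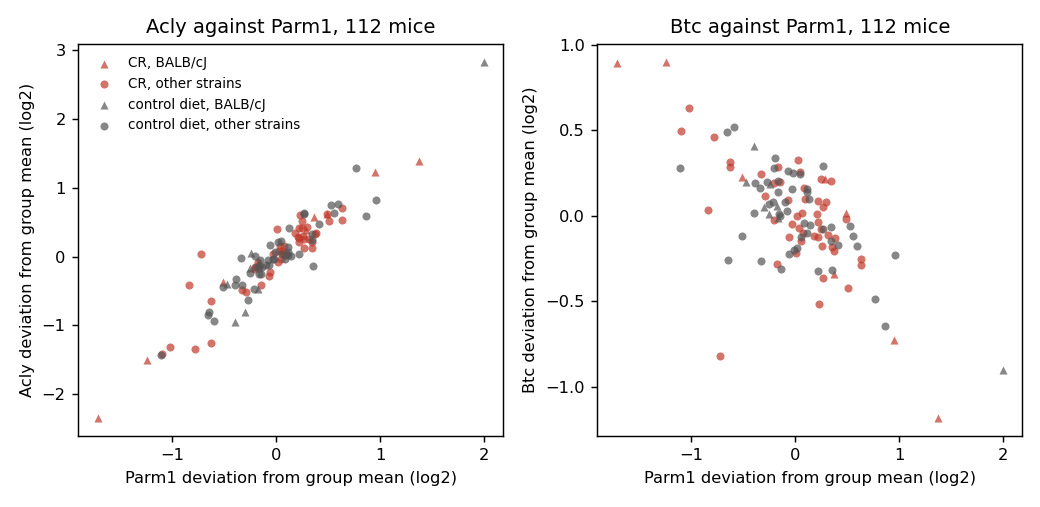
Deviation from the group mean (log2) of Acly (left) and Btc (right) on the vertical axis against that of Parm1 on the horizontal axis, for 112 mice. Red marks are CR mice, grey marks control mice, and triangles BALB/cJ. Acly rises with Parm1 over the whole range (r = 0.940) and Btc runs against it (r = -0.704), with BALB/cJ mice at both ends.

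With the labels as given, the correlation within groups does not use the diet contrast, so the CR change of these genes could be tested. If a label in BALB/cJ were wrong, that mouse would carry the diet contrast into the choice of genes. All 10 genes that followed Parm1 were higher on CR over the strains by limma at an adjusted p under 0.05, as were 21.9% of all genes, with a median change of 1.30 against 0.01 over all genes. Without BALB/cJ 10 of the 10 passed as well. These 10 genes were picked with BALB/cJ included, and 9 of them were among the 10 highest without it. Slc2a5 rose by 2.19 (SE 0.14, adjusted p = 1.33e-26 from limma), Acly by 2.21 (SE 0.13, adjusted p = 9.22e-29) and Acss2 by 1.61 (SE 0.11, adjusted p = 3.68e-25). Dlat had the smallest rise of the 10, at 1.03 (SE 0.07, limma adjusted p = 1.78e-23). Of the 100 genes with the highest r, 100 were higher and 0 lower on CR, with a median of 0.82. This count is not given for genes picked without BALB/cJ.

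The 5 genes at the negative end were all lower on CR, as were 22% of all genes. Peg3 fell by 1.87 on the log2 scale (SE 0.11, limma adjusted p = 2.26e-28), Adgre5 by 0.58, Mycbp2 by 0.56, Sema5a by 0.52 and Ivns1abp by 0.30. By strain the first 4 were lower on CR in each, whereas Ivns1abp changed by 0.09 in C57BL/6J and 0.22 in CBA/J. Of the 100 genes with the lowest r, 97 were lower and 0 higher, with a median of -0.31. Neither this count nor the test of the 5 genes is given for genes picked without BALB/cJ.

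Single mice show the same pattern. Slc2a5 in B6C3F1/J had a lowest, median and highest signal of 8.89, 9.73 and 10.46 on CR, against 6.09, 6.30 and 6.87 on the control diet. Acly in C57BL/6J had 11.35, 11.92 and 12.48 on CR, against 9.13, 9.20 and 9.91 on the control diet. Neither pair of groups overlapped, as was the case for Parm1 in both strains. Of all genes, 6.95% were fully separate in this direction in B6C3F1/J and 2.63% in C57BL/6J. Acss2 in DBA/2J ran from 10.28 through 11.29 to 11.61 on CR, against 9.81, 10.57 and 11.06 on the control diet, and there the groups overlapped, as did those of Parm1. Peg3 in 129S1/SvImJ had 8.11, 8.43 and 9.50 on CR, against 11.47, 11.57 and 11.76 on the control diet. Those groups were apart in the opposite direction to Parm1, and the share of all genes fully separate in that direction was not counted.

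The size of the CR change of these genes differed between strains for 7 of the 10 followers by limma's F-test, as for 19% of all genes. Acss2 rose by 2.43 in B6C3F1/J, 2.22 in 129S1/SvImJ and 0.67 in DBA/2J (adjusted p for the difference = 0.00126 from limma), set beside changes of Parm1 of 2.51, 2.07 and 0.95 in those strains. Ncan, whose change had the widest range over strains among the 10, changed by 2.33 in B6C3F1/J, 2.27 in C3H/HeJ and 0.23 in DBA/2J (adjusted p = 0.000319 from limma). Dlat ran from 0.76 in BALB/cJ to 1.48 in B6C3F1/J and did not pass (adjusted p = 0.12 from limma). B6C3F1/J had the largest change of Parm1 and of all 10 followers. All of these changes come from the same CR and control mice.

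**Figure D4:**
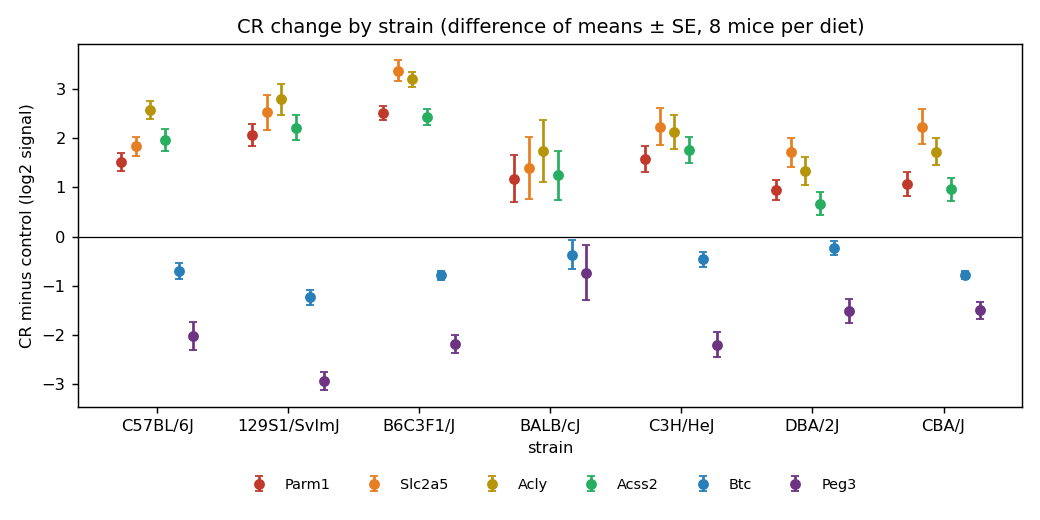
CR minus control difference of group means (log2, vertical axis, ± SE from 8 mice per diet) in each strain (horizontal axis) for Parm1, Slc2a5, Acly, Acss2, Btc and Peg3. Parm1 lies between 0.95 and 2.51 in every strain, Slc2a5 and Acly have their highest values in B6C3F1/J, and Btc and Peg3 are below 0 throughout.

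Parm1 lies on chromosome 5 beside a cluster of ligands of the epidermal growth factor family. Its nearest measured neighbour, Btc, which encodes the ligand betacellulin, changed the other way on CR. In CBA/J, Btc had a lowest, median and highest signal of 6.55, 6.93 and 7.20 on CR, against 7.51, 7.67 and 7.98 on the control diet, with no overlap. How many of all genes separate downward in this strain was not counted. In DBA/2J it had 7.77, 8.03 and 8.34 on CR, against 7.64, 8.28 and 8.81 on the control diet, with broad overlap. Over the strains Btc fell by 0.65 (SE 0.06, limma adjusted p = 1.82e-16), from a decrease of 1.23 in 129S1/SvImJ to one of 0.24 in DBA/2J, and the size differed between strains (adjusted p = 0.0104). Within groups Btc ran against Parm1 with r = -0.704 over 112 mice, -0.715 in CR mice and -0.694 in control mice. That correlation was -0.932 in BALB/cJ and 0.179 in C57BL/6J, or -0.254 in C57BL/6J without the arrays that stood apart.

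Among the other measured neighbours, the ligand genes Ereg (epiregulin) and Epgn (epigen) did not pass for CR, with changes of -0.02 (adjusted p = 0.644 from limma) and -0.03 (adjusted p = 0.464). Mthfd2l, a mitochondrial enzyme of folate metabolism, rose by 0.19, and Cxcl2, a chemokine, fell by 0.23. On the other side, Rchy1, Thap6 and Odaph did not pass, with changes of -0.01, -0.01 and 0.03, Cdkl2, a kinase gene, rose by 0.07, and G3bp2, a stress granule protein, rose by 0.18. G3bp2 also varied with Parm1 within groups (r = 0.682), as Mthfd2l did less closely (r = 0.469). In all, 3 of the 10 neighbours rose, 2 fell and 5 did not pass, next to 43.9% of all genes that passed in either direction.

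**Figure D5:**
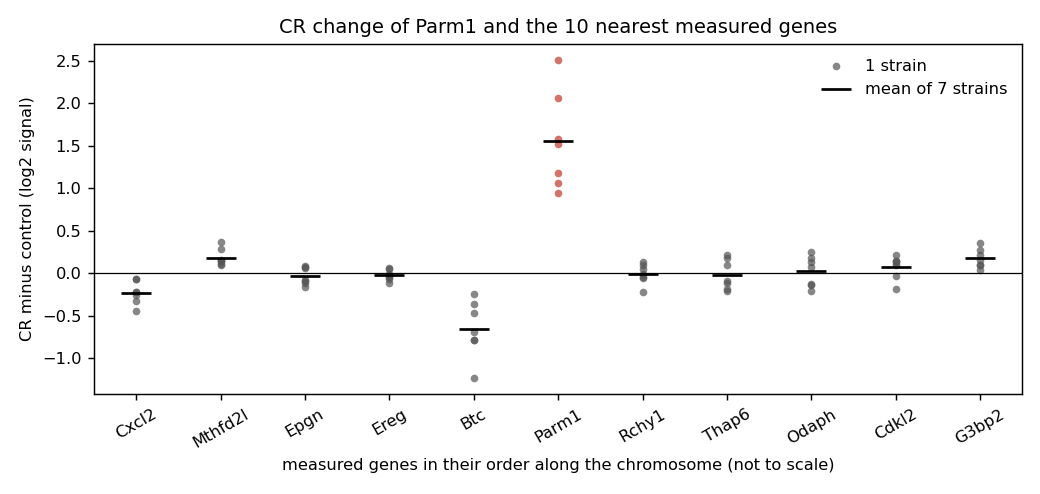
CR minus control difference (log2, vertical axis) of Parm1 and the 5 nearest measured genes on each side, in chromosomal order and not to scale (horizontal axis). Points are the 7 strains and bars their mean. Parm1 stands at 1.55 and Btc, beside it, at -0.65, with every other gene between -0.23 and 0.19.

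The gene lists that bear on what PARM1 is had median changes near that of all genes, of which 21.9% rose and 22% fell. In the lists of O-glycosylation, mucins, endoplasmic reticulum stress and steroid response, however, more members fell than rose. The list mean had r = -0.369 with Parm1 for O-glycosylation, -0.298 for endoplasmic reticulum stress and -0.237 for steroid response. Of 22 measured genes in the O-glycosylation list, 3 rose, 10 fell and 9 did not pass, with a median of -0.07 against 0.01 over all genes. Among its Gcnt genes, Gcnt2 fell by 0.73 (SE 0.04, limma adjusted p = 2.94e-32) and Gcnt1 by 0.21 (limma adjusted p = 0.00388). Gcnt3 changed by -0.07 and did not pass (limma adjusted p = 0.0841). Galnt2, which starts O-glycan chains, rose by 0.33 (SE 0.03, limma adjusted p = 6.18e-17) and varied with Parm1 (r = 0.772). Among 17 measured membrane mucins and sialomucins, 2 rose, 5 fell and 10 did not pass, Selplg, the P-selectin ligand of leukocytes, falling by 0.56. Cd164, a sialomucin, had the highest r of that list with Parm1 (0.631), and the list mean had -0.006.

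Genes of endoplasmic reticulum stress rose in 2, fell in 10 and did not pass in 11 of 23 cases, with a median of -0.06 (21.9% of all genes rose and 22% fell). The stress transcription factor gene Atf4 fell by 0.24 and varied against Parm1 (r = -0.524), while Dnajb9, a chaperone gene, rose by 0.21. Of 15 measured genes of the response to steroid hormones, 4 rose, 6 fell and 5 did not pass, with a median of -0.02, again beside 21.9% of all genes higher and 22% lower. Hsd11b1, which regenerates glucocorticoid, rose by 0.83 (SE 0.07, limma adjusted p = 5.99e-19) with r = 0.604, and Ndrg1, a target of androgen and of other signals, fell by 0.52 with r = -0.650. Seminal vesicle and prostate markers could mark tissue in which Parm1 was first described. Of 12 measured, 1 rose, 0 fell and 11 did not pass, and their mean had r = 0.192 with Parm1. Group means of this list were low, from 4.14 to 4.43 on CR and from 4.17 to 4.31 on the control diet. All lay below the lowest array median of 6.72, so these values say little about such tissue.

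Of the gene lists, that of fatty acid synthesis had the mean with the highest r with Parm1. That list holds Acly, Acss2 and Me1, which were among the 10 genes picked for their r, so its r is in part set by that choice. Of 18 measured, 15 rose, against 21.9% of all genes, 0 fell and 3 did not pass, with a median change of 0.93, and the mean of the list had r = 0.943 with Parm1 over 112 mice. The fatty acid elongase genes Elovl6 and Elovl3 rose by 2.26 and 1.86 (r = 0.873 and 0.834), and Thrsp, a regulator of lipogenesis, by 1.75 (r = 0.817). Single members ranged in r from 0.04 for Fads1, a fatty acid desaturase, to 0.94 for Acly. The study also measured a panel of other WAT markers by qPCR. Of 10 such genes 9 were read by a probe set of their own, and 7 rose and 2 fell on CR. The panel was chosen on these samples, so its direction is no independent evidence. Of the 2 that fell, Ifi27l2a fell by 1.35 and the macrophage gene Cd68 fell by 1.18 (22% of all genes fell). Within groups Acss2 and Me1 were close to Parm1 as given above, Acaca, the first enzyme of fatty acid synthesis, had r = 0.835, Ndufs4, a subunit of respiratory complex I, 0.745, Gpd2, the mitochondrial glycerol-3-phosphate dehydrogenase, had r = 0.876, Slc2a4, the insulin-responsive glucose transporter, 0.765, Nampt, of NAD synthesis, 0.518, and Ifi27l2a, an interferon-stimulated gene, -0.600, and Cd68 -0.275.

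Cell composition was read from marker lists, and in whole tissue fewer cells of a type and less RNA per cell cannot be told apart. Adipocyte markers were high in every group, with group means of the list from 12.23 to 12.45 on CR and from 12.24 to 12.41 on the control diet, and 4 of 13 rose, 4 fell and 5 did not pass, beside 21.9% of all genes higher and 22% lower. Of 23 macrophage markers 22 fell, with group means of the list from 8.31 to 8.93 on CR and from 8.73 to 10.22 on the control diet, and the list mean had r = -0.241 with Parm1 within groups. Fibroblast and progenitor markers fell in 6 of 7 cases, with a median of -0.18, group means from 9.12 to 9.73 on CR and from 9.57 to 9.98 on the control diet, and r = -0.233. Epididymis markers had group means from 5.47 to 6.78 on CR and from 5.45 to 6.78 on the control diet. They rose in 3 of 17 cases, with a median change of 0.33 against 0.01 over all genes, and had r = -0.130. These similar ranges hide an uneven spread over single mice. A mean epididymis signal past the limit of 1 log2 unit was found in 6 CR mice and 2 control mice, the latter from DBA/2J. The array median had r = -0.358 with Parm1, and with each array centred on its median the r of the 10 followers ran from 0.914 to 0.942. The part of macrophage, fibroblast and epididymis RNA in the CR change of Parm1 was not tested, and without the 12 arrays that stood apart that change was 1.62 over the strains.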

How the data were processed

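Epididymal WAT of 112 mice was measured on Affymetrix arrays, 1 separate mouse per array. The authors deposited log2 signals per probe set. Per their notes these came from the gene-level RMA-Sketch workflow of Expression Console, in which background is corrected, arrays are brought to the same distribution and the probes of a set are combined. Its version, and the set of arrays normalized as one, are not given in the sources used here. A common distribution would hide a change shared by all genes, and array medians lay between 6.72 and 6.86.

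Of 35556 probe sets, 21789 carried 1 symbol and gave 19938 genes. The brightest probe set was taken for the 999 genes with several. Neighbours came from the RefSeq gene table, in which 19856 genes were matched. limma 3.58.1 (R 4.3.3) was fitted to 14 groups of 8 mice, and p-values were adjusted by Benjamini-Hochberg over all genes, with a threshold of 0.05. Contrasts were the mean CR minus control difference over the strains, its difference between strains (F-test), and strain differences in the mean of both diets. Pearson correlations used deviations from the group means. The fit was tested on simulated data. Array weights used statmod 1.5.0, and Python 3.11.15, pandas 2.3.3, numpy 2.4.6 and matplotlib 3.10.9 were used for description and figures.

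Genes named were Parm1, the 10 highest and 5 lowest correlations with it, the 5 nearest measured genes on each side, the other qPCR markers of the study, and up to 4 members of each list. List members named for their correlation (Cd164, Fads1), or in addition to this rule, were picked with their values in view. The members and lists were chosen with earlier results of these data known. 12 arrays were taken to stand apart, 8 of them because epididymis markers averaged over 1 log2 unit above the median array and the others on correlation with their group. The means of other marker lists had r with Parm1 of -0.03 (T cell), 0.05 (B cell), 0.11 (endothelium), -0.13 (smooth muscle), -0.04 (mesothelium), 0.17 (skeletal muscle) and -0.02 (red blood cell). Alternatives were the scaling of arrays, arrays and strains included, the replicate number as a block, array weights, the raw signal scale, rank correlation, scaling of deviations, a filter on dim genes and a trend with robust variance. Other tissues of the study were not analysed here.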

Additional observations from a re-analysis of the deposited data

Results flagged for a closer look

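In groups of 8 mice, a mouse was taken to stand apart where its gap to the nearest other mouse passed Dixon's critical value as a share of the range. Chance gives about 1 group in 20. For Parm1 this held in 3 of 14 groups, for BALB/cJ control mouse 3 (11.26), C3H/HeJ CR mouse 4 (9.95) and CBA/J CR mouse 5 (10.48), the last on an array with epididymis markers 5.84 log2 units above the median array. Over the 6 genes given by group it held in 17 of 84 groups, and since the genes vary together these are not separate events.

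BALB/cJ control mouse 3 also stood apart for Slc2a5 (9.69), Acly (13.00), Acss2 (12.09), Peg3 (7.54) and Btc (7.23). C3H/HeJ CR mouse 4 stood apart for Acly (11.17), Acss2 (10.50), Peg3 (9.50) and Btc (8.37), low where Parm1 was low for the first pair of genes and high for the others. B6C3F1/J CR mouse 8 stood apart for Acss2 (11.46) and Peg3 (9.47). Single mice stood apart for 1 gene each, namely B6C3F1/J control mouse 2 for Slc2a5 (6.87), C57BL/6J control mouse 5 for Acly (9.91) and DBA/2J CR mouse 6 for Acly (10.78).

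Among 25 named genes, limma's F-test found a CR change that was unequal across strains for 14, as for 19% of all genes. The adjusted p was 0.0412 for Slc2a5, 0.0139 for Acly, 0.00126 for Acss2, 0.0129 for Angptl8, 0.0102 for Dhrs7, 0.00718 for Me1 and 0.000319 for Ncan among the genes that followed Parm1. At the negative end it was 0.00073 for Peg3, 0.00726 for Sema5a, 0.000876 for Ivns1abp and 0.0226 for Adgre5. Among the neighbours it was 0.0104 for Btc, 0.0039 for Thap6 and 0.015 for Cdkl2.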

How the results depend on the processing

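Under other settings 77 values were scored as unchanged, 3 were not, and none changed sign. A change of Parm1 was scored as unchanged if it kept its sign and moved by less than the SD of mice within groups. That limit is wide, and the DBA/2J change counted as unchanged at 1.33 against 0.95. Tests were scored on direction and the side of the threshold, and counts of genes on a set ratio to the reported count. The Parm1 CR change over the strains was 1.57 with arrays centred on their median, 1.54 with quantile normalization and 1.71 with array weights, and in DBA/2J it was 1.33 without the arrays that stood apart, against 0.95 with them. The difference of the hybrid from the parental mean passed with array weights (0.29, adjusted p = 0.0468 from limma), against adjusted p of 0.275 to 0.318 in the other settings. Of the 10 genes that followed Parm1 most closely, 5 were among the 10 highest in CR arrays only and 4 when deviations were divided by the group SD, and all 10 were among the highest 100 in each setting tried. Of the 5 lowest, 1 was among the 5 lowest in CR arrays only, in control arrays only and without the arrays that stood apart, and all 5 were among the lowest 100 in each setting. Centring each array raised the share of higher genes among those changed by CR to 57.1%, against 49.8% as reported. Same-numbered mice were not taken as pairs. Of 56 such pairs, 18 had a correlation of deviations over 0.1 (median 0.03, range -0.36 to 0.55). Mice with different numbers were not compared in this way, so these values do not settle whether the numbers pair. With the replicate number as a block the strain F was 18.8 and the number of genes changed by CR 8981, against 8753. Leaving out BALB/cJ control mouse 3, and leaving BALB/cJ out of the CR change (8848 genes changed), was chosen after the data were seen. The number of arrays limits the precision, and the study's design gives 8 mice per group.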
